A study of Mus musculus with 12 samples.

Results

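Intestinal stem cells of mice in which 1 of the 2 Apc copies could be removed were compared with cells of mice that kept both. The members of the comparison are the 4 libraries labelled Apc_HET and the 4 labelled Apc_WT, 8 of the 12 samples in the series, chosen by their genotype labels. All mice were C57BL/6 and carried Lgr5-CreERT2-ires-eGFP, a transgene that places a green fluorescent protein and a tamoxifen-activated Cre recombinase in Lgr5-expressing cells. Apc_WT mice were Apc+/+ and Apc_HET mice were ApcFlox/+, so that Cre could remove 1 Apc copy. Cre could act only in Lgr5-expressing cells, and their descendants inherit the change. Every animal, controls included, was given tamoxifen by 1 injection and afterwards in the diet for 5 days, and the Lgr5-GFP+ cells were sorted at day 15. The labels give neither sex, age nor sequencing batch. The study text gives 4 mice per genotype, but the labels do not say that each library is a separate mouse, so p-values measure only the spread between these libraries, which may be technical.

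The APC protein helps hold together the machinery that labels beta-catenin for breakdown, and without a Wnt signal this keeps the TCF target genes low. Lgr5-expressing cells at the base of the intestinal crypt live under strong Wnt signalling, divide continually and give rise to absorptive enterocytes and to the secretory Paneth, goblet and enteroendocrine cells. Mice and people born with 1 inactive Apc copy develop intestinal tumours in which the remaining copy has been lost.

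RNA was measured in each library as FPKM, sequenced fragments divided by transcript length and by the size of the library, a unit that allows levels to be compared between genes. Values were scaled between libraries by median-of-ratios size factors, and 12149 genes that reached 1 FPKM in 4 or more libraries were tested with limma on log2(FPKM + 1). All fold changes are Apc_HET minus Apc_WT on that log2 scale, which understates the change of genes with low values, and errors are standard errors with 4 libraries per group. Total FPKM ran from 407340 to 496814 in Apc_WT and from 411679 to 440254 in Apc_HET. The deposited tables give no read counts, so the depth is unknown and no counting interval can be given. Because these are bulk libraries, fewer cells of a type and less RNA per cell cannot be told apart.

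The sorted cells carried the stem cell marker they were chosen by. Lgr5, the receptor that gave the sort its reporter, had scaled FPKM of 30.8, 24.1, 20.6 and 22.1 in Apc_WT 1 to 4 and of 23.4, 27.5, 30.8 and 20.9 in Apc_HET 1 to 4. The groups overlapped, with a difference of 0.07 ± 0.15 on the log2 scale that was slightly below 0 without Apc_WT 3 or without Apc_HET 3. Olfm4, a secreted protein abundant in crypt base stem cells, ran from 5136 to 5889 FPKM in Apc_WT and from 4603 to 7459 FPKM in Apc_HET. Paneth cell RNA was present in every library as well: Lyz1, the Paneth cell lysozyme, ran from 2140 to 3824 FPKM in Apc_WT and from 1330 to 2806 FPKM in Apc_HET.

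Libraries of 1 genotype did not form 1 group. Principal component 1, with 37.6% of the variance, placed Apc_HET 1, 2 and 3 at 13.9, 27.4 and 36.7, against -20.6 for Apc_HET 4 and -22.4 to -6.13 for Apc_WT. Over the tested genes, the library most like Apc_HET 4 was Apc_WT 1 (Pearson's r = 0.977), and Apc_WT 3 and 4 were each most like Apc_HET 1; genes are not independent replicates, so r is a description. Xist, expressed from the inactive X chromosome, was at 34.0 FPKM in Apc_WT 2 and 59.4 FPKM in Apc_HET 1 and at most 0.166 FPKM elsewhere. The same pair of libraries still held Y-linked RNA, with Ddx3y at 9.39 and 6.82 FPKM against 14.6 to 20.0 FPKM in the other 6, so Xist and Y-linked RNA occurred together. The 3 Y-linked genes tested were all lower by their means in Apc_HET (median -0.08, and 0.26 without Apc_HET 1). Without that pair (an alternative added after the data had been seen), 280 genes were higher and 501 lower at an unadjusted p under 0.05, no gene was called, and the medians were -0.99 for enterocyte, -0.27 for respiratory chain and 0.55 for MHC class II genes.

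The mean whole-gene level of Apc itself was not lower in Apc_HET. Apc stood at 10.2, 7.04, 10.7 and 8.39 FPKM in Apc_WT 1 to 4 and at 9.49, 10.6, 10.5 and 12.3 FPKM in Apc_HET 1 to 4. The groups overlapped, the difference of the means was 0.22 on the log2 scale, and an exact two-sided permutation test over the 8 libraries gave p = 0.2, where 0.0286 is the smallest p that 4 against 4 can give. The deposited value is 1 number for the gene (deposited locus chr18:34220814-34322193, GRCm38) and does not show reads of single exons, so it does not check the deletion. Of the 88 genes tested within 10 Mb of Apc, 2 were higher and 2 lower in Apc_HET without overlap of the groups, against 1.74% and 2.77% of all genes tested.

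Only 1 of 12149 genes passed an adjusted p of 0.05 (0.00823%; limma, Benjamini-Hochberg over all genes). At an unadjusted p under 0.05, 390 genes were higher in Apc_HET (3.21%) and 660 were lower (5.43%), against 607 genes in both directions that would pass with no difference at all. The 4 libraries of one genotype lay entirely above the 4 of the other for 212 genes higher in Apc_HET (1.74%) and 336 lower (2.77%). By the means alone, 6117 genes were higher (50.3%) and 6032 lower (49.7%). This balance rests on the size factors, which were 0.974 to 0.982 in Apc_WT and 1.02 to 1.03 in Apc_HET. With FPKM as deposited, the unadjusted counts turned to 1097 higher and 215 lower, and the counts without overlap to 685 higher and 79 lower. The shifts were small, with 82.9% of genes within 0.25 of 0 and a median within-group SD of 0.156, both on the log2 scale.

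**Figure D1:**
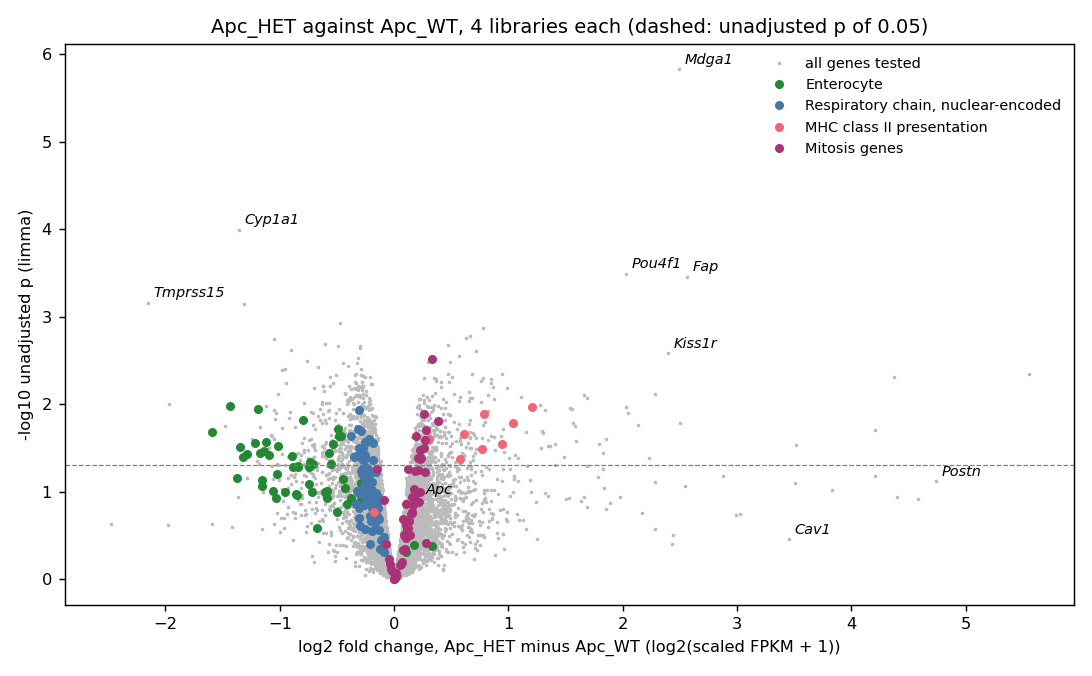
Each point is 1 of 12149 genes, with the log2 fold change (Apc_HET minus Apc_WT, scaled FPKM + 1) on the x axis and -log10 of the unadjusted limma p on the y axis; 4 gene lists are coloured and the dashed line marks p of 0.05. Mdga1 stands alone at the top, the enterocyte list lies mostly at the left, MHC class II genes mostly at the right, and Cav1 and Postn have large fold changes with large p.

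The called gene was Mdga1, a membrane-anchored adhesion protein known from neurons. Mdga1 was listed at 0 FPKM in all 4 Apc_WT libraries and at 3.60, 7.98, 4.26 and 3.59 FPKM in Apc_HET 1 to 4. It rose with an adjusted p of 0.0182 (limma), but it passed the filter on low values only through the Apc_HET libraries, where it is high, so this p is no independent support. No fold is given because a control value of 0 has no depth behind it. The deposited locus, chr17:29832933-29833265 on GRCm38, is 333 bases long and covers 0.234% of the gene, with 133 bases in annotated exons. The call ended without Apc_WT 1, 2 or 4 and without Apc_HET 1 or 3 (adjusted p of 0.0621 to 0.142), in the fit over all 12 libraries (adjusted p = 0.111) and with library weights (adjusted p = 0.081), and with a filter of 5 FPKM the gene was not tested. It also ended with libraries blocked by replicate number and with Apc_WT 2 and Apc_HET 1 both left out. No other gene came below an adjusted p of 0.566.

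Other genes of small p were also read from fragments of their gene models. Pou4f1, a transcription factor of sensory neurons, was 2.03 ± 0.35 higher, with 0.258 to 1.83 FPKM in Apc_WT and 3.18 to 10.5 FPKM in Apc_HET (unadjusted p = 0.00032), and its locus covered 16.7% of the gene. Fap, the fibroblast activation protease, stood at 0.224, 0, 0.359 and 1.60 FPKM in Apc_WT and at 18.6, 7.10, 3.53 and 6.37 FPKM in Apc_HET, from 22.4% of its gene. Tmprss15, the enteropeptidase that activates trypsinogen, was lower, at 4.90 to 15.1 FPKM in Apc_WT and 0.261 to 2.31 FPKM in Apc_HET, from 0.310% of its gene. For these 3 genes, and for Kiss1r (7.37% of the gene), the kisspeptin receptor, the groups did not overlap. Kiss1r stood at 0.580, 0, 0 and 0.913 FPKM in Apc_WT and at 4.91, 17.7, 1.27 and 8.21 FPKM in Apc_HET. Kiss1r passed the filter on low values only through Apc_HET, where it is high, and Pou4f1 and Fap mainly so. Their lack of overlap and small p are therefore no independent support. Among all annotated genes tested, 16.2% had loci under 80% of the gene. These shares, here and below, count introns as well as exons. What reads over such short loci stand for was not tested.

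Most other genes of small p were measured over their whole length and differed without overlap by smaller amounts. Of those higher in Apc_HET, Nt5dc2 differed by 0.66 ± 0.15, Tmx3, a redox protein of the endoplasmic reticulum, by 0.63 ± 0.14, and Myo5c, a motor of vesicle transport, by 0.48 ± 0.13. Pcf11, a factor of 3' end cleavage, stood at 15.6 to 15.9 FPKM in Apc_WT and 18.1 to 24.5 FPKM in Apc_HET, and Ythdc1, a nuclear reader of methylated RNA, at 29.5 to 35.0 FPKM and 36.8 to 39.2 FPKM. Kif20b, a mitotic kinesin, differed by 0.33 ± 0.08. Sgsm1, read from 64.5% of its gene, differed by 0.37 ± 0.10 and BC039771 by 1.34 ± 0.52, the latter 0.82 without Apc_WT 2.

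Those lower in Apc_HET included Slc11a2, the iron importer of the duodenal brush border, at 23.1, 24.3, 25.7 and 26.6 FPKM in Apc_WT and 21.6, 20.2, 19.7 and 18.9 FPKM in Apc_HET. S100a16, a calcium-binding protein, differed by -0.49 ± 0.11 and Ptges2, a prostaglandin E synthase, by -0.30 ± 0.07. The lipid phosphatase Ppap2c differed by -0.31 ± 0.08, Nudt19 by -0.33 ± 0.08, Zswim1 by -0.41 ± 0.10, Smim7 by -0.29 ± 0.07 and AA467197 by -0.76 ± 0.19. Slc7a15, whose loci covered 34.0% of the gene with its introns but 2653 of its 2990 exon bases, differed by -1.31 ± 0.26. Mdga1 aside, every tested gene named so far had an adjusted p of 0.566 or more (limma), so none passed the test; Xist was below the filter and was not tested.

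The 38 gene lists with tested genes are described by how many members lay on each side and by their median, beside a median of 0.001 over all genes; no member of any list passed the adjusted test. Among 42 Wnt pathway components, 25 were higher and 17 lower, with a median of 0.04. Ctnnb1, which encodes beta-catenin, stood at 237 to 290 FPKM in Apc_WT and 243 to 257 FPKM in Apc_HET. The co-repressor Tle3 and the casein kinase Csnk1e had the smallest p, and both were carried by Apc_HET 1 to 3: Csnk1e was at 16.4 to 18.1 FPKM in Apc_WT and at 21.0, 21.5, 28.2 and 16.7 FPKM in Apc_HET 1 to 4. Apc_HET 4 lay inside the Apc_WT range for both genes.

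Of 30 Wnt target genes, 22 were higher and 8 lower, with a median of 0.12, and 1 was higher at an unadjusted p under 0.05 (3.21% of all genes). That gene was Axin2, a direct beta-catenin target that feeds back on the pathway. Axin2 stood at 59.4, 51.2, 43.8 and 48.7 FPKM in Apc_WT 1 to 4 and at 62.9, 66.5, 72.2 and 55.0 FPKM in Apc_HET 1 to 4. Apc_HET 4 lay below Apc_WT 1, so the groups overlapped, and the difference was 0.33 ± 0.11 (unadjusted p = 0.016, adjusted p = 0.57, limma). The list median without each library in turn ran from 0.07 to 0.17.

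Crypt base stem cell markers were mostly higher, 34 of 43, with a median of 0.13. Of the 43, 4 were higher at an unadjusted p under 0.05 and 2 without overlap (3.21% and 1.74% of all genes). The pair without overlap were Nav1, a microtubule-binding protein, at 5.52 to 7.71 FPKM in Apc_WT and 8.23 to 9.97 FPKM in Apc_HET, and Rassf5, a Ras effector, at 4.68 to 5.73 FPKM and 5.97 to 7.38 FPKM. Dach1, a transcriptional regulator, differed by 0.32 ± 0.12, Arid5b, a chromatin protein, by 0.24 ± 0.11, and Afap1l1 by 0.20 ± 0.09. The libraries differed in how far they took part. Apc_HET 3 lay above the range of the 4 Apc_WT libraries for 29 of the 43 markers and Apc_HET 2 for 22, against 24.0% and 17.4% of all genes, while Apc_HET 1 did so for 9 and Apc_HET 4 for 8. Apc_HET 4 lay below the Apc_WT range for 13.

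Enterocyte genes made up the list whose median lay furthest below 0. Of 53 genes of the absorptive brush border and lipid transport, 50 were lower and 3 higher in Apc_HET, with a median of -0.75. Of the 53, 22 were lower at an unadjusted p under 0.05 and 5 without overlap (5.43% and 2.77% of all genes). Lct, the lactase of the brush border, stood at 23.9, 16.2, 16.8 and 41.1 FPKM in Apc_WT 1 to 4 and at 13.7, 5.56, 3.34 and 13.2 FPKM in Apc_HET 1 to 4. The groups did not overlap, but Apc_HET 1 and 4 lay much closer to Apc_WT 2 and 3 than to Apc_HET 2 and 3. Ace, the angiotensin-converting enzyme, followed the same order, at 24.1, 19.0, 23.8 and 50.3 FPKM in Apc_WT and 17.9, 8.80, 6.34 and 16.4 FPKM in Apc_HET.

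Most other enterocyte genes overlapped between the groups. Alpi, the alkaline phosphatase of the brush border, stood at 104, 114, 137 and 279 FPKM in Apc_WT 1 to 4 and at 98.4, 42.2, 22.4 and 111 FPKM in Apc_HET 1 to 4. Cyp3a11, a drug-metabolizing cytochrome, differed by -1.59 ± 0.56 and Cyp3a13 by -0.79 ± 0.26, and the brush border cadherins Cdhr5 and Cdhr2 by -0.49 ± 0.17 and -0.46 ± 0.17, the latter without overlap. Mgam, the maltase-glucoamylase and the list's most abundant gene, ran from 1355 to 1960 FPKM in Apc_WT and from 1175 to 1594 FPKM in Apc_HET. Otop3, a proton channel outside the list, differed by -1.17 ± 0.40 without overlap.

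The libraries took unequal parts in this difference. The median deviation of the enterocyte list from the 8-library mean was 0.12, 0.14, 0.15 and 1.08 in Apc_WT 1 to 4 and 0.01, -0.76, -1.01 and 0.16 in Apc_HET 1 to 4. Apc_WT 4 was thus high and Apc_HET 2 and 3 low, while the other 5 libraries lay within a narrow band that held both genotypes. Apc_WT 4 was the highest of the 8 libraries for 47 of the 53 genes and Apc_HET 3 the lowest for 43, against 2722 and 2332 of all 12149 genes. Apc_HET 2 lay below the Apc_WT range for 48 genes and Apc_HET 3 for 49 (19.8% and 25.1% of all genes). Apc_HET 1 lay below it for 23 (14.2% of all genes) and Apc_HET 4 for 6 (19.6%). The list median ran from -1.01 without Apc_HET 4 to -0.51 without Apc_WT 4, and no left-out library turned its sign.

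**Figure D2:**
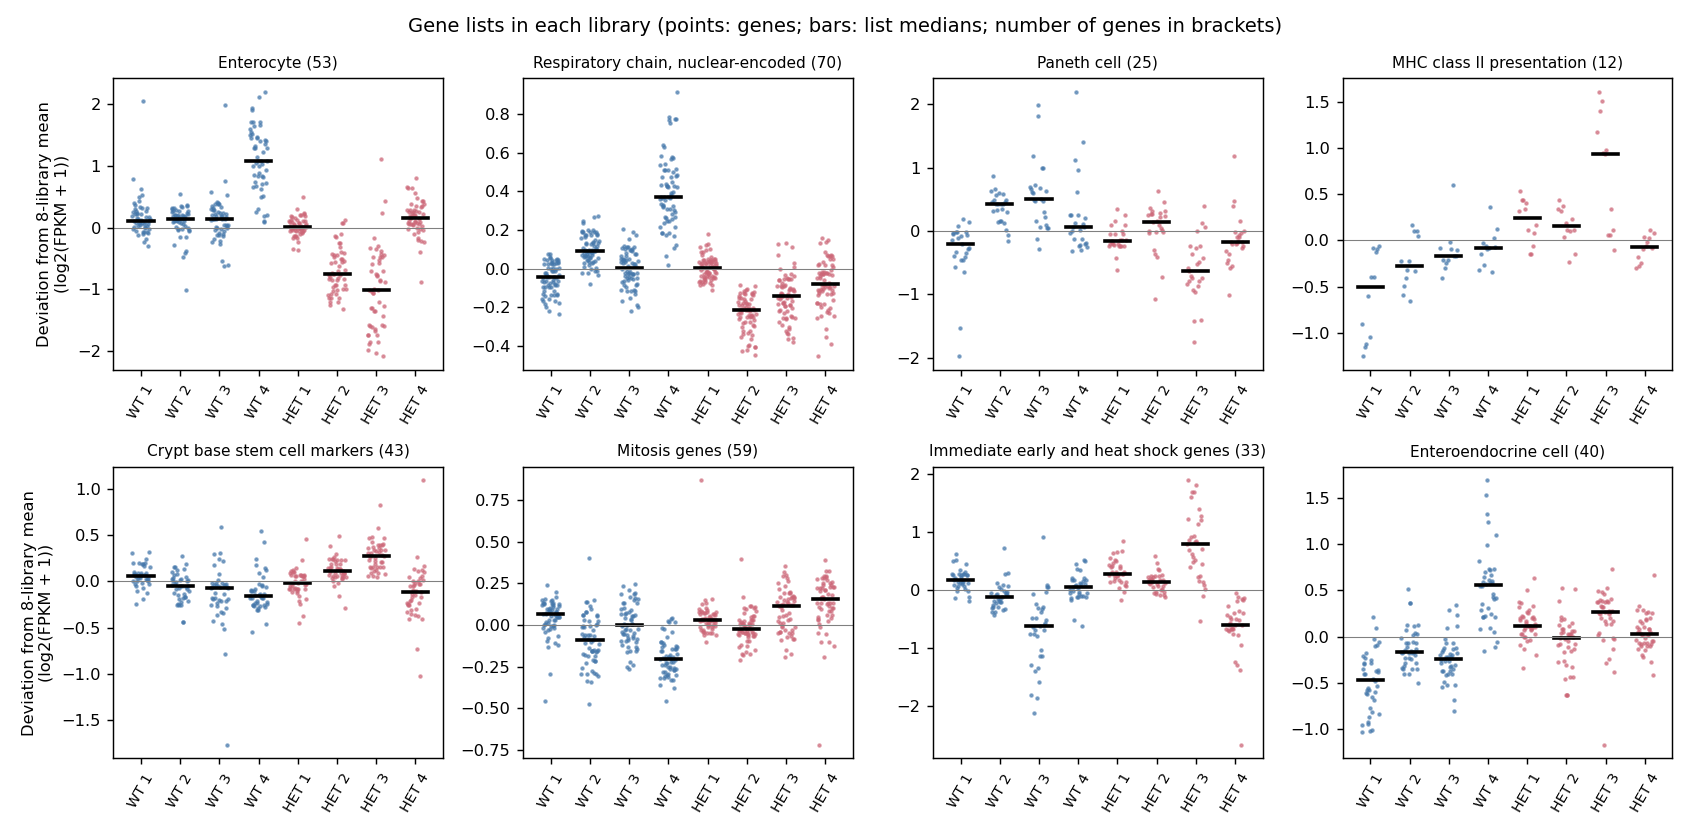
Each panel shows 1 gene list in the 8 libraries (x axis); points are genes, as the deviation of log2(FPKM + 1) from the gene's 8-library mean (y axis), and black bars are list medians. For enterocyte genes Apc_WT 4 sits at 1.08 and Apc_HET 2 and 3 at -0.76 and -1.01, and for MHC class II genes Apc_HET 3 sits at 0.94 and Apc_HET 4 at -0.07.

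Related absorptive lists showed the same libraries at their ends. Of 38 cytochrome P450 and conjugation genes, 35 were lower, with a median of -0.37 and a median deviation of 0.66 in Apc_WT 4 and -0.37 and -0.55 in Apc_HET 2 and 3. Ephx2, an epoxide hydrolase, stood at 45.9 to 73.7 FPKM in Apc_WT and 27.4 to 40.7 FPKM in Apc_HET, with no overlap. Cyp1a1, a target of the aryl hydrocarbon receptor, stood at 2.45, 2.81, 2.10 and 1.05 FPKM in Apc_WT and at 0.258, 0.101, 0.108 and 0.257 FPKM in Apc_HET, although from 2.21% of its gene. Its unadjusted p of 0.000101 was the next after that of Mdga1 (adjusted p = 0.566, limma). Cyp1a1 passed the filter on low values only through the Apc_WT libraries, where it is high, so this p is no independent support. The glutathione transferases Gstp1 and Mgst3 differed by -0.34 ± 0.12 and -0.55 ± 0.21.

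Genes of the proximal small intestine were lower in 11 of 14 cases, with a median of -0.43. Slc40a1, the iron exporter ferroportin, stood at 9.97, 10.02, 14.0 and 19.6 FPKM in Apc_WT and at 9.59, 5.10, 3.93 and 9.48 FPKM in Apc_HET, and the groups did not overlap. Slc5a1, the sodium-glucose transporter, differed by -0.57 ± 0.23, and Apoa4, a lipid-carrier protein, by -1.32 ± 0.55. Ileum and colon genes were lower in 9 of 15 cases with a median of -0.35, which was -0.13 without Apc_WT 3. Of 4 butyrophilin-like genes, all were lower by their means (median -0.25).

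Paneth cell genes were lower in 20 of 25 cases, with a median of -0.52 and 8 lower at an unadjusted p under 0.05 (5.43% of all genes), but none was without overlap. Defa24, an alpha-defensin, stood at 2140, 3035, 3505 and 2613 FPKM in Apc_WT and at 1905, 2165, 1471 and 1552 FPKM in Apc_HET. Only Apc_HET 2 exceeded the lowest control. The intelectin Itln1 differed by -0.69 ± 0.24, the colipase Clps by -0.63 ± 0.19, Defa26 by -0.58 ± 0.18, Guca2b, a guanylate cyclase ligand, by -0.75 ± 0.28 and the trypsin inhibitor Spink3 by -1.07 ± 0.39. Apc_HET 3 was again the lowest library, but the highest was Apc_WT 3: list deviations were -0.21, 0.42, 0.51 and 0.06 in Apc_WT 1 to 4 and -0.16, 0.14, -0.64 and -0.17 in Apc_HET 1 to 4. The median was -0.23 without Apc_WT 3 and -0.68 without Apc_WT 1. Near-identical defensin copies can share reads, so single defensin values are uncertain.

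Tuft cell genes were lower in 21 of 23 cases, with a median of -0.28. At an unadjusted p under 0.05, 6 were lower and 1 higher (5.43% and 3.21% of all genes). Spib, a transcription factor, stood at 4.42, 6.19, 8.95 and 8.58 FPKM in Apc_WT and at 3.17, 4.64, 1.93 and 2.82 FPKM in Apc_HET, with Apc_HET 2 just above Apc_WT 1. Rgs13, a regulator of G-protein signalling, differed by -0.65 ± 0.20 without overlap. Apc_HET 3 and 4 lay below the Apc_WT range for 19 and 18 of the 23 genes (25.1% and 19.6% of all genes), Apc_HET 1 for 9 (14.2%) and Apc_HET 2 for 2 (19.8%).

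Enteroendocrine genes pointed the other way, with 31 of 40 higher and a median of 0.23. Of the 40, 1 was higher at an unadjusted p under 0.05 and none without overlap (3.21% and 1.74% of all genes). Neurog3, the factor that starts this lineage, stood at 6.06 to 8.05 FPKM in Apc_WT and 7.03 to 10.2 FPKM in Apc_HET, and Rfx6, which acts after it, differed by 0.34 ± 0.16. Rimbp2 differed by 0.32 ± 0.14, and Pcsk1, a prohormone convertase, by 0.34 ± 0.17. Both hormone genes named by the rule were highest in Apc_WT 4: Sst, somatostatin, was at 131 FPKM in Apc_WT 4 and at 17.1 to 57.4 FPKM in the other 7 libraries, and Gip, the incretin, at 543 FPKM in Apc_WT 4 and 97.3 to 234 FPKM in the others. Apc_WT 4 was the highest library for 25 of the 40 genes and Apc_WT 1 the lowest for 25 (22.4% and 7.92% of all genes). Without Apc_WT 4 the list median was 0.45, and without Apc_HET 3 it was 0.14. Goblet cell genes were split, with 15 higher and 14 lower (median 0.02).

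Among nuclear-encoded respiratory chain genes, all 70 were lower in Apc_HET by their means, with a range of -0.38 to -0.09 and a median of -0.22. Of the 70, 18 were lower at an unadjusted p under 0.05 and 11 without overlap (5.43% and 2.77% of all genes). Ndufb6, a complex I subunit, stood at 117, 133, 127 and 154 FPKM in Apc_WT and at 112, 96.2, 108 and 110 FPKM in Apc_HET. Sdhc, a complex II subunit, stood at 167, 187, 170 and 194 FPKM in Apc_WT and at 161, 144, 131 and 166 FPKM in Apc_HET. Ndufa8, also of complex I, differed by -0.32 ± 0.11, while Atp5b, the most abundant member, differed by -0.09 ± 0.13.

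Apc_WT 4 was the highest library for 66 of the 70 respiratory chain genes (22.4% of all genes). Apc_HET 2 was the lowest for 39 and Apc_HET 3 for 23 (6.54% and 19.2% of all genes). Apc_HET 1 and 4 lay below the Apc_WT range for 21 and 36 (14.2% and 19.6% of all genes). Without Apc_WT 4 the median was -0.13, the value nearest to 0 over the left-out libraries. These are short genes, with a median annotated exon length of 1718 bases against 4259 for all genes, and Apc_WT 4 and 2 ran high for short genes in general. With the trend over exon length removed from each library (an alternative added after the data had been seen), all 69 members with a length were still lower and the median was -0.17.

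**Figure D3:**
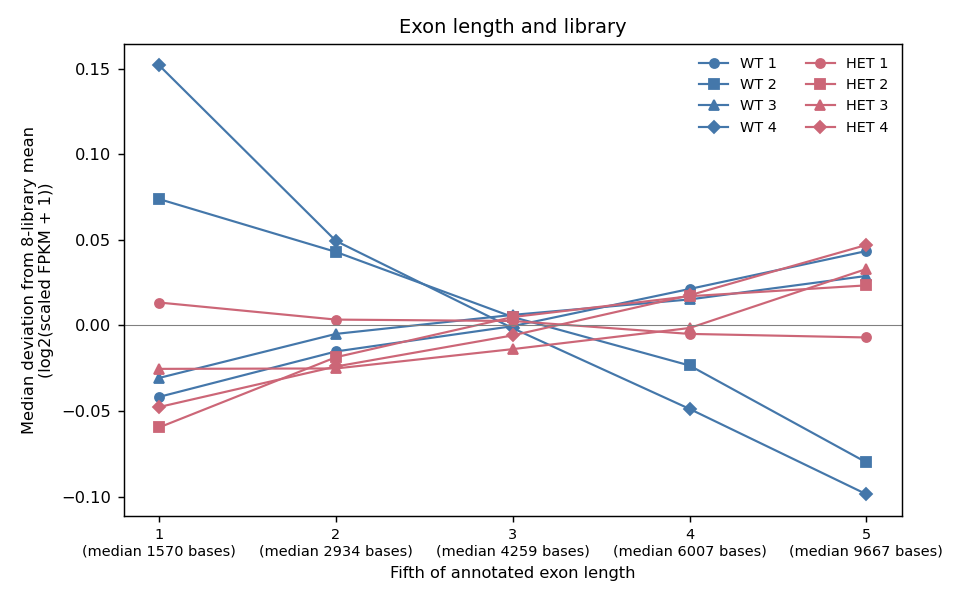
The x axis gives 5 equal bins of tested genes by annotated exon length and the y axis the median deviation of log2(FPKM + 1) from the 8-library mean, 1 line per library. In the shortest bin Apc_WT 4 lies at 0.152 and Apc_WT 2 at 0.074, and the other 6 libraries between -0.06 and 0.013.

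The same length dependence was visible in the comparison. The median log2 fold change was -0.06 in the bin of shortest genes, -0.03, 0.00 and 0.02 in the next ones and 0.05 in the longest. Genes without overlap split likewise, with 1.05% higher and 3.89% lower among the shortest genes and 2.64% higher and 1.42% lower among the longest. Level moved with it too: the median was 0.05 in the bin of genes with the lowest values and -0.06 in the highest. A trend also ran over GC content, the share of G and C letters in the transcript. From the bin of lowest to that of highest GC content, the median went from 0.04 to -0.03. Genes higher without overlap went from 2.60% to 0.75%. Apc_HET 4 had the widest range over these bins, with median deviations of 0.090 in the lowest and -0.108 in the highest. The part of these trends in the list differences was not tested beyond the values without the length trend.

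Other metabolic lists had lower medians as well. Of 18 glycolysis genes, 14 were lower (median -0.21), with Ldha, lactate dehydrogenase A, at 419 to 553 FPKM in Apc_WT and 290 to 433 FPKM in Apc_HET, and the lactate exporter Slc16a3 at -0.40 ± 0.14 with no overlap. Pkm, pyruvate kinase, differed by -0.33 ± 0.16. Of 26 cholesterol genes, 23 were lower (median -0.15), but Apc_WT 3 was the highest library for 22 of them, and without it the median was -0.06. Ebp, a sterol isomerase, stood at 47.2 to 62.6 FPKM in Apc_WT and 42.6 to 44.6 FPKM in Apc_HET, with no overlap, and Sc4mol, a sterol demethylase, differed by -0.41 ± 0.16. Fatty acid oxidation genes were lower in 23 of 27 cases (median -0.14, and -0.06 without Apc_WT 4).

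Mitosis genes were slightly higher, 51 of 59, with a median of 0.13. Of the 59, 11 were higher at an unadjusted p under 0.05 and 4 without overlap, against 3.21% and 1.74% of all genes. These 4 were Ccnb2, Kif20a, Kif20b and Kif2c, a cyclin and kinesins of cell division. Kif2c stood at 17.3, 17.6, 16.3 and 15.5 FPKM in Apc_WT and at 18.9, 18.3, 23.1 and 20.7 FPKM in Apc_HET. Top2a, the topoisomerase of dividing cells, differed by 0.14 ± 0.13 and overlapped. Apc_HET 4 was the highest library for 28 of the 59 and Apc_WT 4 the lowest for 32 (12.2% and 18.5% of all genes). The median ran from 0.08 to 0.16 over the left-out libraries. Genes of S phase did not share this, with 15 of 53 higher and a median of -0.05, which was 0.04 without Apc_WT 3, the highest library for 40 of them.

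Genes of nucleolus and polyamine synthesis were higher in 27 of 40 cases (median 0.07), among them Gnl3, nucleostemin, at 43.3 to 52.7 FPKM in Apc_WT and 53.8 to 58.9 FPKM in Apc_HET. Cytosolic ribosomal protein genes were lower in 59 of 74 cases, though with a median of -0.03. That median was 0.03 without Apc_WT 4 and 0.02 with the length trend removed.

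MHC class II genes, whose products present antigen to CD4 T cells and which Lgr5-expressing stem cells can express, had the highest median of the lists with more than 5 tested genes. Of 12 members, 10 were higher and 2 lower in Apc_HET, with a median of 0.59. Of the 12, 8 were higher at an unadjusted p under 0.05 and 2 without overlap (3.21% and 1.74% of all genes). In many class II promoters a CCAAT element, the Y box, lies next to the site bound by the RFX factors. To show it, 130 bases up to the annotated start of the genes for the alpha chain H2-Aa, the beta chain H2-Eb1 and the peptide loader H2-DMb1 are printed 5' to 3' from RefSeq (GRCm38.p6), with the letters ATTGG or, on the other strand, CCAAT in capitals:
H2-Aa, chr17:34287824-34287953, minus strand: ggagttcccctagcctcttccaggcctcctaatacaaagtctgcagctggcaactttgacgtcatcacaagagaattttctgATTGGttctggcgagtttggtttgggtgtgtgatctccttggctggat
H2-Eb1, chr17:34305737-34305866, plus strand: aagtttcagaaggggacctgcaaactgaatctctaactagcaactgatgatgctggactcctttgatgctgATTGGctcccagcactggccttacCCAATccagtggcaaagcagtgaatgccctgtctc
H2-DMb1, chr17:34153061-34153190, plus strand: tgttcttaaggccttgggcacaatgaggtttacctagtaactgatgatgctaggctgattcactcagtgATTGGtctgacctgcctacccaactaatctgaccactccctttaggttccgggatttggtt
The 8 list members whose entries were used have 10 promoters there, and 7 of these held ATTGG or CCAAT between 250 bases before and 50 after the start, as did 37.4% of all 32851 promoters of that length. The interferon response core GAAANNGAA, searched on both strands, was in 1 of the 10 (8.56% of all promoters). A match describes the letters only.

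H2-Aa stood at 26.6, 42.7, 48.8 and 58.7 FPKM in Apc_WT 1 to 4 and at 94.9, 88.7, 201 and 57.2 FPKM in Apc_HET 1 to 4. H2-Eb1 stood at 37.7, 62.6, 67.2 and 69.1 FPKM in Apc_WT and at 113, 108, 238 and 69.95 FPKM in Apc_HET. In both genes Apc_HET 3 was highest by far and Apc_HET 4 lay at the level of the highest controls, below Apc_WT 4 for H2-Aa and just above it for H2-Eb1. H2-DMb1 was without overlap, at 6.93 to 14.3 FPKM in Apc_WT and 15.7 to 30.2 FPKM in Apc_HET.

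Among the remaining members, Cd74, the invariant chain and the most abundant member, stood at 201, 322, 355 and 301 FPKM in Apc_WT and at 470, 477, 853 and 307 FPKM in Apc_HET, with Apc_HET 4 below Apc_WT 2 and 3. The beta chain H2-Ab1 differed by 0.94 ± 0.36, and the loader H2-DMa, read from 19.8% of its gene, by 0.61 ± 0.22. The locus of H2-Ab1 covered 52.98% of the gene with its introns, but 2419 of its 2568 exon bases. H2-Ab1 and H2-Aa were deposited under the same locus, chr17:34263205-34287849. The transactivator Ciita was at 1.93 to 3.56 FPKM in Apc_WT and at 3.98, 3.99, 8.11 and 3.44 FPKM in Apc_HET, and Rfx5, an RFX subunit, differed by 0.31 ± 0.11. Apc_HET 1, 2 and 3 lay above the Apc_WT range for 8, 9 and 9 of the 12 genes, and Apc_HET 4 within it for 9. Apc_WT 1 was the lowest library for 7. The list median was 0.37 without Apc_HET 3 and 0.72 without Apc_HET 4.

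**Figure D4:**
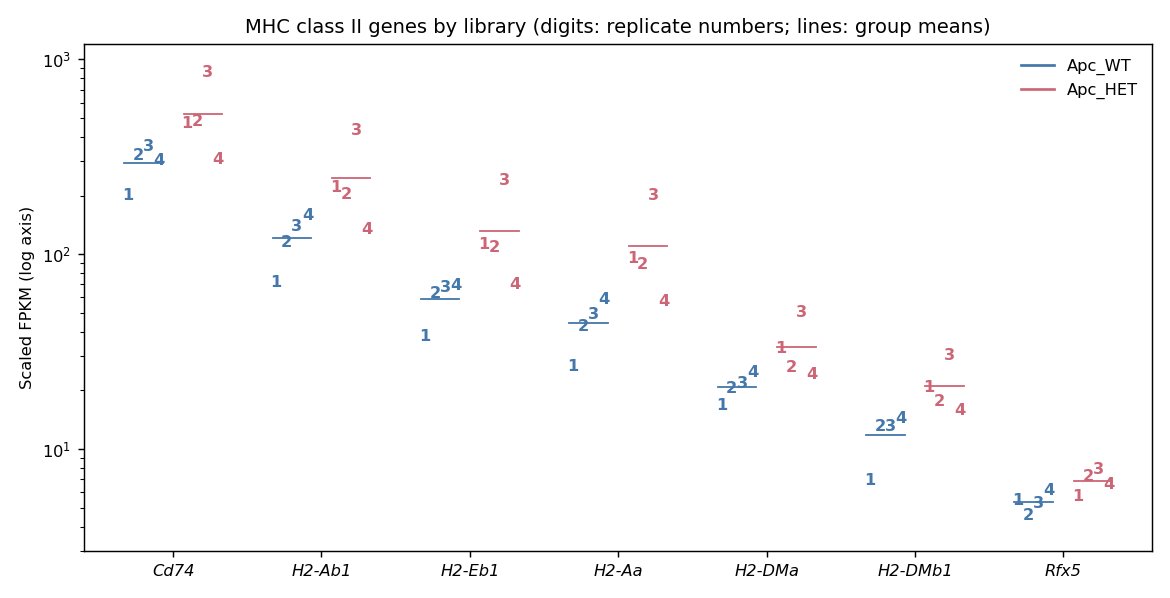
Scaled FPKM on a log axis for 7 MHC class II genes (x axis); digits are replicate numbers, blue for Apc_WT and red for Apc_HET, and lines are group means. Replicate 3 of Apc_HET is the highest of the 8 libraries for each gene shown, at 853 FPKM for Cd74, and replicate 4 of Apc_HET lies near the top of the controls.

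Leukocytes also express class II genes, and markers of them were measured. Ptprc, the common leukocyte antigen, was at 0.37 to 1.07 FPKM, Itgax, of dendritic cells, at 0 to 2.10 FPKM, and the B cell genes Cd79a and Ms4a1 at 0.15 to 0.96 and 0.32 to 0.75 FPKM. Ptprc, Itgax and Cd79a were each highest in Apc_HET 3, the library with the highest class II values. Over the whole leukocyte list, 25 of 45 markers had values and none was at 0 in every library. Its summed FPKM was 48.1 to 114 in Apc_WT and 52.0 to 167 in Apc_HET, highest in Apc_HET 2, where Cd3d, a T cell receptor subunit read from 24.3% of its gene, alone stood at 121 FPKM. Of 17 tested members, 7 were higher (median -0.03). By median deviation the list was highest in Apc_HET 3 (0.52), which lay above the Apc_WT range for 6 of the 17 (24.0% of all genes). The part of these cells in the class II difference was not tested.

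MHC class I and immunoproteasome genes had a median of 0.06, with 18 of 27 higher. H2-Q7, a nonclassical class I gene, stood at 7.36 to 9.34 FPKM in Apc_WT and at 22.03, 21.5, 48.5 and 9.36 FPKM in Apc_HET 1 to 4, so that Apc_HET 4 lay only just above the highest control. H2-T10, a further nonclassical class I gene, differed by 0.68 ± 0.20 with overlap, and H2-T22, the most abundant member, by -0.05 ± 0.31. These genes have near-identical copies, so their values are uncertain. Interferon response genes were higher in 30 of 36 cases, with a median of 0.13. It was 0.05 without Apc_HET 3, the highest library for 23 of them (18.1% of all genes). Irgm1, an interferon-induced GTPase, differed by 0.32 ± 0.13 and Ifit2 by 0.36 ± 0.15. Epithelial chemokine and cytokine genes had a median of 0.04.

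Of 33 genes of the immediate early and heat shock responses, 28 had a higher mean in Apc_HET with a median of 0.30, yet none reached an unadjusted p under 0.05. Fos stood at 1269, 1014, 626 and 1021 FPKM in Apc_WT and at 1257, 1238, 1836 and 660 FPKM in Apc_HET. Atf3, a stress-induced factor, stood at 322, 250, 84.3 and 329 FPKM in Apc_WT and at 442, 463, 994 and 183 FPKM in Apc_HET. Apc_HET 3 was the highest library for 27 genes, Apc_WT 3 the lowest for 18 and Apc_HET 4 for 13 (18.1%, 16.5% and 12.6% of all genes). The median was 0.07 without Apc_HET 3 and 0.56 without Apc_HET 4. Nr4a2, Fosl2 and Fosb differed by 0.57 ± 0.31, 0.40 ± 0.23 and 0.69 ± 0.41.

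Fetal-like and regenerative genes had 18 of 23 higher and a median of 0.13, which was 0.02 without Apc_HET 3. Epithelial identity genes were lower in 10 of 12 cases (median -0.12). Medians were 0.01 for 40 intestinal transcription factors, 0.03 for 27 Notch genes, 0.04 for 26 p53 targets, 0.04 for 31 BMP and TGF-beta genes and -0.01 for 27 unfolded protein response genes. They were 0.01 for 21 genes of DNA methylation, with Mbd4, a thymine glycosylase, at 0.22 ± 0.09, 0.03 for 29 Polycomb genes, with Cbx2 at 0.20 ± 0.09, and -0.07 for 11 histone genes.

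Some mesenchymal genes were near 0 in some libraries and abundant in others of the same genotype. Cav1, caveolin-1, stood at 0.0856, 0.230, 1636 and 963 FPKM in Apc_WT 1 to 4 and at 4586, 8011, 820 and 0 FPKM in Apc_HET 1 to 4. Its values spanned almost the whole range of expression within each genotype, its log2 difference was 3.45 ± 3.48, and its locus covered 93.8% of the gene. A search made after these values had been seen found 19 genes under 1 FPKM in Apc_WT 1, Apc_WT 2 and Apc_HET 4 and at 10 FPKM or more in Apc_HET 1 and 2, and no gene with the reverse pattern. They include Mmp2, a matrix metalloproteinase, Postn, periostin, Hand2 and Twist1, mesenchymal transcription factors, Loxl1, a collagen cross-linker, Hgf, hepatocyte growth factor, and Cdh11, a mesenchymal cadherin.

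**Figure D5:**
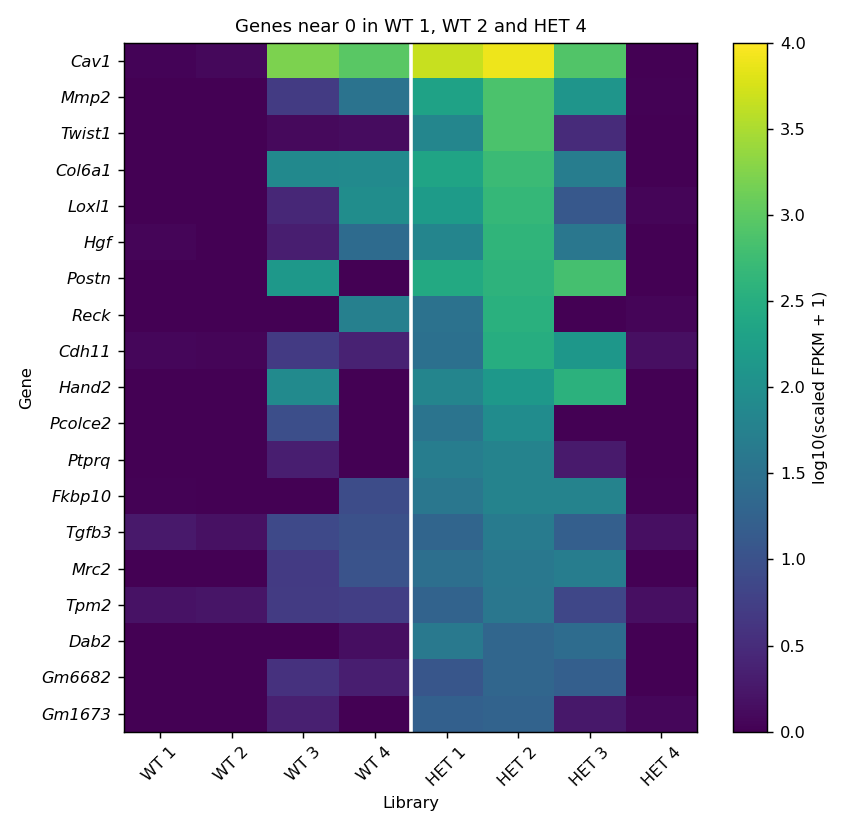
Rows are the 19 genes chosen for this pattern, columns the 8 libraries, and the colour gives log10(scaled FPKM + 1). Apc_WT 1, Apc_WT 2 and Apc_HET 4 are dark throughout, and Cav1 reaches 8011 FPKM in Apc_HET 2.

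Of these 19 genes, 15 reached 1 FPKM in Apc_HET 3, 15 in Apc_WT 3 and 12 in Apc_WT 4, and 18 were higher in Apc_HET 2 than in Apc_HET 1. Postn stood at 0, 0, 136 and 0 FPKM in Apc_WT and at 267, 388, 671 and 0 FPKM in Apc_HET. Col6a1, a collagen chain, stood at 0, 0, 77.9 and 81.5 FPKM in Apc_WT and at 215, 537, 47.8 and 0 FPKM in Apc_HET. The deposited locus covered under 80% of the gene for 16 of the 19, for example 3.90% for Postn and 4.03% for Col6a1, and at least 80% for Cav1, Tpm2 and Gm1673. Of the 19, 13 passed the filter on low values, which the selection favours.

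Marker genes of whole stromal cells did not all move with them. Vim, vimentin, stood at 6.93, 8.05, 13.5 and 19.1 FPKM in Apc_WT and at 41.0, 79.97, 39.0 and 11.3 FPKM in Apc_HET, which is again lowest in Apc_WT 1, Apc_WT 2 and Apc_HET 4. Tagln, of smooth muscle, stayed between 1.71 and 2.28 FPKM in all 8 libraries, Col1a1 was at 0 in Apc_HET 1 to 3 and at most 2.22 FPKM elsewhere, and Cdh5, of endothelium, was at most 0.02 FPKM. Pdgfrb, read from 11.3% of its gene, differed by 0.78 ± 0.27 and Lyve1 by 0.43 ± 0.29. Of 25 stroma and endothelium markers, 12 had values and 5 were tested; all 5 were higher (median 0.78). The summed FPKM of the list was 14.3, 15.96, 101 and 114 in Apc_WT 1 to 4 and 269, 629, 107 and 25.6 in Apc_HET 1 to 4. Col6a1, read from 4.03% of its gene and among the genes chosen above for this pattern, is a member of the list. Col6a1 alone stood at 0, 0, 77.9 and 81.5 FPKM in Apc_WT 1 to 4 and at 215, 537, 47.8 and 0 FPKM in Apc_HET 1 to 4. No erythrocyte marker had a value. The part of other cells in these differences was not tested.

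Single libraries also stood apart in single genes. Mest, an imprinted gene, was at 1224 FPKM in Apc_HET 3 and at 0.0993 to 27.3 FPKM elsewhere, from 17.3% of its gene. Thbs4, a thrombospondin, was at 279 FPKM in Apc_HET 3 and at 1.14 to 14.1 FPKM in the other 7 libraries, from 1.59% of its gene. Hhat, a Hedgehog acyltransferase, was at 3.65 FPKM in Apc_WT 4 and at 95.3 to 237 FPKM elsewhere. Among genes with a mean of at least 5 FPKM over the 8 libraries, those in which a library lay outside the range of the rest of its group were counted. Those at least 1 from the nearest of these on the log2 scale numbered 20, 40, 59 and 87 in Apc_WT 1 to 4. In Apc_HET 1 to 4 they numbered 16, 26, 48 and 104.

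The Apc_KO group, ApcFlox/Flox mice with the same transgene and treatment, was compared with the same 4 Apc_WT libraries, so the values stand side by side and share their controls. With all 12 libraries scaled together, the enterocyte median was -0.75 in Apc_HET and -2.73 in Apc_KO, and the respiratory chain median was -0.23 and -0.66. The MHC class II median was 0.59 in Apc_HET and -1.52 in Apc_KO, mitosis genes stood at 0.12 and -0.38, and Wnt targets at 0.11 and 0.58. A difference between these effects was not tested.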

How the data were processed

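RNA of sorted Lgr5-GFP+ cells was analysed from 4 Apc_WT and 4 Apc_HET libraries; the 4 Apc_KO libraries entered only an alternative fit and the side-by-side medians. The deposited values are FPKM per locus by their column headers. Bowtie, TopHat, Cufflinks, Cuffdiff and the build mm10 (GRCm38) are named in the submitters' processing notes without their roles. Versions are not given in the sources used here. FPKM were summed per gene symbol. Of 14487 symbols, 200 whose loci differed between tables and 104 with a failed estimate were left out. Median-of-ratios scaling, a filter of 1 FPKM in 4 libraries and a pseudocount of 1 preceded limma 3.58.1 (R 4.3.3, trended moderation, Benjamini-Hochberg over 12149 genes), which was also tested on simulated data. Python 3.11.15 was used for the summaries. Locus coverage, exon length and coordinates refer to GENCODE vM21 (GRCm38).

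The comparison, its members and the 40 gene lists were chosen with earlier results of these data known. Of 1341 list entries, 1136 had a usable value; the erythrocyte and mitochondrially encoded lists had no tested gene. Named genes are Apc, Lgr5, Olfm4 and Axin2, called genes, the 10 genes of smallest p and the 5 of largest change in each direction (groups without overlap, at least 5 FPKM in the higher group, no predicted models or joined symbols), the members of smallest p and highest level in each list, and the 3 genes by which each library stands furthest from its group, not all of which are printed. Others (Alpi, Sdhc, Ciita, Ptprc, Itgax, Cd79a, Ms4a1, Ccnb2, Kif20a, Col1a1, Cdh5, Mmp2, Twist1, Cdh11, Tpm2, Gm1673, Xist and Ddx3y) were named after their values were seen. Alternatives covered scaling, pseudocount, filter, fit, weights, loci, replicate block and each library left out.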

Additional observations from a re-analysis of the deposited data

Results flagged for a closer look

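In 19 of 300 groups of 4 libraries, over the list medians and named genes, 1 library stood further from the rest than Dixon's 95% critical value allows. Chance gives about 1 in 20 groups, but Cthrc1, Zic1, Postn, Hand2 and Hhat were named because a library stood apart in them, so the count is not compared with that share. Among median list deviations (log2), Apc_WT 1 was apart for Wnt targets (0.0595) and BMP and TGF-beta genes (0.0768), Apc_WT 3 for cholesterol genes (0.363), Apc_WT 4 for enterocyte genes (1.08) and Apc_HET 1, the lowest, for sex-linked genes (-0.99).

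Among genes, Apc_WT 1 was low for H2-DMb1 (6.93 FPKM) and H2-Eb1 (37.7 FPKM) and high for Afap1l1 (17.6 FPKM), Zbtb38 (22.8 FPKM) and Csnk1e (18.1 FPKM). Apc_WT 4 was high for Mgst3 (211 FPKM) and Apoa4 (297 FPKM) and low for Hhat (3.65 FPKM), while Apc_HET 3 was high for Hhat (237 FPKM). Apc_WT 3 was high for Postn (136 FPKM) and Hand2 (81.0 FPKM). Apc_HET 4 was listed at 0 FPKM for Cthrc1 and Postn, and Apc_WT 2 at 0 FPKM for Zic1. What sets these libraries apart was not tested.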

How the results depend on the processing

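The cause of each change below was not tested, beyond fewer libraries or genes where the setting leaves them out. No gene was called with a filter of 5 FPKM, with all 12 libraries in the fit, with array weights, without Apc_WT 2 and Apc_HET 1, or at loci covering 80% or more of their gene (the latter pair and the length trend were chosen after the data had been seen); with 1 library left out, 0 to 3 genes were called. The 390 genes higher at an unadjusted p under 0.05 became 1097 with FPKM as deposited, 236 with a filter of 5 FPKM, 196 with 12 libraries and 195 to 604 with 1 library left out. The 660 lower became 215, 304 (12 libraries) and 282 to 914. The 212 higher without overlap became 685 as deposited, 136 with the 5 FPKM filter, 715 without Apc_WT 2 and Apc_HET 1 and 277 to 671 with 1 left out; the 336 lower became 79, 850 and 398 to 868. With FPKM as deposited, where the median of all genes was 0.066, list medians were 0.107 for Wnt components, 0.088 for Notch, 0.107 for p53 targets, 0.110 for BMP, 0.079 for DNA methylation and 0.098 for Polycomb genes. Chemokines stood at 0.170 without Apc_WT 2 and Apc_HET 1 and at -0.0072 without Apc_WT 3, stroma at 1.58 with the 5 FPKM filter and ileum and colon at -0.585 with single-locus symbols. With 1 library left out, medians ran from -0.081 to 0.049 for goblet, -0.038 to 0.068 for Notch, -0.042 to 0.063 for p53 and -0.492 to -0.129 for ileum and colon genes.

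Single genes that changed sign were Lgr5 (-0.0022 without Apc_WT 3 and -0.020 without Apc_HET 3), Thbs4 (-0.55 without Apc_HET 3), Tagln (-0.021 with quantile normalization), H2-T22 (0.027 as deposited, and 0.21, 0.055 and 0.057 without Apc_WT 4, Apc_HET 2 and Apc_HET 3) and Gip. Gip stood at 0.039 as deposited, 0.051 with quantile normalization, 0.049 with array weights, 0.051 with the length trend removed, and 0.47, 0.050 and 0.029 without Apc_WT 4, Apc_HET 2 and Apc_HET 4. Same-numbered libraries did not deviate together (correlations of -0.213 to -0.065, against -0.159 to 0.280 for libraries of other numbers). So few correlations cannot settle whether the numbers pair libraries. With the replicate block 0 genes were called (Mdga1 at an adjusted p of 0.265, limma), and 282 were higher and 622 lower at an unadjusted p under 0.05. Over the libraries left out in turn, these genes ran from -0.020 to 0.18 (Lgr5), -0.55 to 1.79 (Thbs4), -0.28 to 0.21 (H2-T22) and -0.35 to 0.47 (Gip). Depth is unknown, which limits what can be said of genes listed at 0.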
